A study of Mus musculus with 6 samples.

Results

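MKOC and TJ cells are a pair of mouse kidney epithelial lines that were both given rapamycin, and the genes described here are those whose response to the drug differed between the lines. For each gene symbol, a response was taken as the log2 ratio of the rapamycin library over the untreated library of the same line, on CPM (estimated counts scaled to a common library total) with 0.5 added. A gene was kept when its response in TJ cells minus its response in MKOC cells was at least 1 in either direction, a 2-fold difference between the ratios. Of 11026 genes with at least 50 estimated counts in at least 1 of the 4 kidney libraries, 137 met this rule (1.24%). In 85 of them the response was higher in TJ cells (0.771%), and in 52 it was lower (0.472%). The measured difference selected these genes, so their differences are given as a description. With 1 library per line and treatment there was no replicate check and no test, and the intervals below cover counting error only.

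All 4 libraries came from cells labelled Tsc2-null. TJ cells are further labelled as derived from a secondary tumor grown in C57BL6 mice, while the labels say nothing more about MKOC cells, and whether either line is a single clone is not given in the sources used here. Both lines received diluent or 100 nM rapamycin for 18 h in serum-free medium, and the libraries were made from total RNA with a stranded mRNA kit. The series also holds 2 libraries of untreated, p53-/- mouse embryonic fibroblasts (MEFs), 1 Tsc2-/- and 1 Tsc2+/+, which the rule did not use.

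TSC2 is a subunit of the tuberous sclerosis complex, which keeps the small GTPase Rheb inactive. Without the complex, Rheb keeps mTORC1 active, and this kinase complex drives translation, glycolysis, and lipid and nucleotide synthesis and restrains autophagy. Rapamycin, bound to FKBP12, blocks part of the activity of mTORC1 and, with long exposure in some cells, also limits the assembly of mTORC2.

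Tsc2 RNA was counted in every kidney library, at 192.7 CPM in untreated and 78.0 CPM in rapamycin-treated MKOC cells and at 172.7 and 76.9 CPM in TJ cells. In the MEFs it was at 111.2 CPM with Tsc2+/+ and 39.5 CPM with Tsc2-/-. These levels say how much Tsc2 transcript was assigned, and the deleted part of the gene is not given in the sources used here, so they do not check the label. The Tsc2 responses of -1.30 in MKOC and -1.16 in TJ differed by 0.14. Estimated counts ranged from 22887020 to 30079631 per kidney library. Of 10 kidney epithelial markers, 8 were above 1 CPM in every kidney library, among them Cdh16 (748.9 to 1396 CPM) and Pax8 (161.2 to 216.7 CPM), whereas Epcam was at most 0.0334 CPM and Krt19 at most 0.526 CPM. Of 6 macrophage markers, the defining genes Ptprc, Adgre1 and Tyrobp were at or near 0 (at most 0.112 CPM) and Itgam at most 0.192 CPM, while Csf1r (28.1 to 77.3 CPM) and Cd14 (6.31 to 18.5 CPM) were counted. Of 7 fibroblast markers only Dcn reached 1 CPM, at 29.2 and 58.7 CPM in untreated and treated MKOC and 7.70 and 12.3 CPM in TJ cells. Of 6 endothelial markers only Cdh5 did, at 8.45 and 7.76 CPM in MKOC and 2.90 and 2.65 CPM in TJ. In cultured lines as in any bulk sample, fewer cells of a kind and less RNA per cell cannot be told apart.

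Across the 11026 genes the 2 lines had similar spreads of response. The standard deviation of the response was 0.54 in MKOC and 0.522 in TJ cells, and Pearson's r between the responses across genes was 0.82, a description over genes that are not independent. The difference between the lines had a median of -0.02, and the central 95% of genes lay between -0.56 and 0.70. A response of 2-fold or more upward was seen for 467 genes in MKOC and 471 in TJ, and one of 2-fold or more downward for 263 and 220 genes. The members are therefore the tails of a distribution in which most genes lay close to the diagonal.

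**Figure D1:**
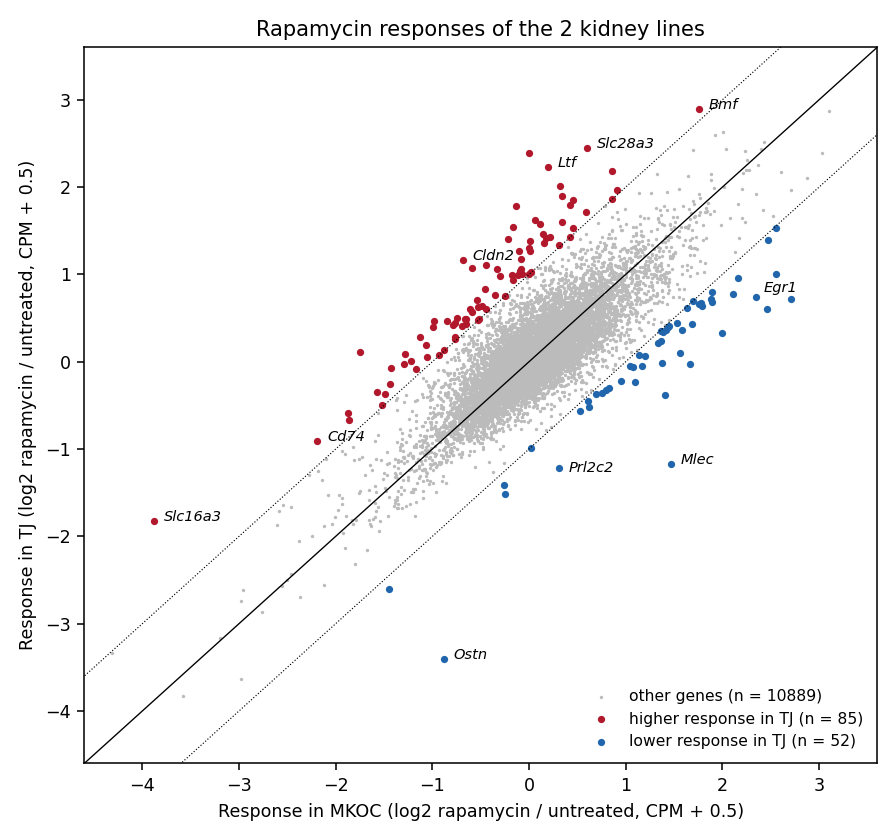
Response of each gene in MKOC (x axis) and TJ cells (y axis), as log2 of rapamycin over untreated CPM with 0.5 added, 1 library per line and treatment. The solid line marks equal responses and the dotted lines a difference of 1, and the 85 red and 52 blue genes lie on or beyond the dotted lines, with Slc16a3, Ltf and Cldn2 above and Mlec and Ostn below.

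Members fell into kinds of response by the change in each line. The response was at least 1 upward in TJ with less than 0.5 of change in MKOC for 31 genes, and at least 1 upward in MKOC with less than 0.5 in TJ for 21. Another 13 genes were at least 1 lower after rapamycin in MKOC alone and 3 in TJ alone. In a further 22 genes the response was at least 0.5 upward and in 6 at least 0.5 downward in both lines, and in 9 it was at least 0.5 in opposite directions. The remaining 32 met none of these descriptions. At the edge of the rule, Kifc3 (1.0005) and Ctsh (1.003) lay just inside the upper threshold, with Plac8 (0.994) and Dpm3 (0.989) just outside it. Filip1l (-1.007) and Zfp619 (-1.010) lay just inside the lower threshold, with Anxa8 (-0.987) and Adamts6 (-0.981) just outside it.

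How the levels of the lines compared before and after treatment is tied to the rule by arithmetic and is given as a description. Among the 85 genes with the higher response in TJ, 15 were at least 2-fold higher in TJ than in MKOC cells before treatment and 56 after it. Among the 52 with the lower response in TJ, 2 were at least 2-fold lower in TJ before treatment and 22 after it.

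Most members were genes of low count, and this limits single values. The highest count in any kidney library had a median of 167 over the members and 1252 over all genes considered. Only 62 members (45.3%) reached 200 counts, against 89.0% of all genes, and 21 reached 1000 counts. Of the 6248 genes with 1000 counts or more, 0.336% were members. The 95% counting interval of the difference lay wholly beyond 1 for 33 members, which the rule itself favours. The interval of 514 other genes reached 1, so membership near the threshold depends on counting. With nothing added to the CPM, 129 of the 134 members with at least 1 count in each kidney library stayed past the threshold with the same sign, and Alpl, Gda, Olfr523, Ostn and Pigr did not.

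Promoter sequences from RefSeq (GRCm38.p6), the 250 bases before a transcription start on the gene's strand, are shown for 4 members that the following paragraphs turn on. Slc16a3 had the largest positive difference of the genes considered after Zxda, which shares its sequence with a copy, Ltf and Ccrl2 are neighbours with alike responses, and Cxcl10 is an interferon target among the genes with the lower response in TJ. Capitals mark a hypoxia response core (ACGTG, or CACGT where it lies on the other strand) or an interferon-stimulated response core (GAAANNGAA).

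Slc16a3 (chr11:120948817-120949066, plus strand): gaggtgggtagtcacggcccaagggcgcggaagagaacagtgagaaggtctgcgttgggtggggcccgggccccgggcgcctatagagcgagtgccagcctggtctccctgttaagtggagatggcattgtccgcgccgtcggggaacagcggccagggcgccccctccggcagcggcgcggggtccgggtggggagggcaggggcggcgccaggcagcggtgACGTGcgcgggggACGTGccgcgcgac

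Ltf (chr9:111019042-111019291, plus strand): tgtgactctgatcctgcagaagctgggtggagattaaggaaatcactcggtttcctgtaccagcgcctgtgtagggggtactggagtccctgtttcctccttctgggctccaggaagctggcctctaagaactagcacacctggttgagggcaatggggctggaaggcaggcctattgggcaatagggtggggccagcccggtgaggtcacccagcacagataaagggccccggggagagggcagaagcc

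Ccrl2 (chr9:111057519-111057768, minus strand): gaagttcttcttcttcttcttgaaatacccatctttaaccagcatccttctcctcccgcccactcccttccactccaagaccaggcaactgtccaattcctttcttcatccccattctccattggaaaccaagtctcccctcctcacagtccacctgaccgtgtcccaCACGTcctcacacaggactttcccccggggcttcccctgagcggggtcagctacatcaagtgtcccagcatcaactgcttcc

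Cxcl10 (chr5:92348890-92349139, minus strand): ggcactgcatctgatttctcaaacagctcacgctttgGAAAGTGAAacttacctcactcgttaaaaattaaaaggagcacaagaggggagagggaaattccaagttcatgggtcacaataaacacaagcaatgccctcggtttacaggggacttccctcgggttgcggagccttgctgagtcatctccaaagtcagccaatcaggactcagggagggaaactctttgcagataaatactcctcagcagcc

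Slc16a3 held 2 copies of ACGTG, 27 and 14 bases before the start, Ccrl2 held 1 on the other strand, Cxcl10 held 1 GAAANNGAA, and Ltf held none of the motifs searched. Of 137 members, 92 had at least 1 promoter in the table, and a gene was counted when any of its promoters held the motif. Ccrl2 has 3 promoters there, of which 1 is shown. On either strand, ACGTG was in 23 of the 92 members and in 18.5% of 27025 genes, and CACGTG, the E-box of lysosomal genes that also contains ACGTG, in 7 of 92 (7.61%) and 6.86%. GAAANNGAA was in 3 of 92 (3.26%) and 8.18%, TTCNNNGAA in 7 of 92 (7.61%) and 8.13%, and TGATGNAA, bound by ATF4, in 3 of 92 (3.26%) and 3.91%. These matches are descriptions of letters in a window.

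Ltf, Ccrl2, Lbp and Il17rc had upward responses above 1 in TJ cells and responses within 0.2 of 0 in MKOC cells, on the scale with 0.5 CPM added. They are set side by side as proteins of host defence after their values were seen, and no list of that kind was counted. Ltf encodes lactoferrin, an iron-binding antimicrobial protein. It was at 0.167 CPM (5 counts) in untreated and 0.263 CPM (6 counts) in treated MKOC cells and at 3.16 CPM (85 counts) and 16.6 CPM (439 counts) in TJ cells. The TJ treated library stood above the other 3, the responses were 0.19 and 2.23, and the difference was 2.03 (95% counting interval 1.44 to 2.62). With nothing added the Ltf responses were 0.66 and 2.39 and the difference was 1.74. Ccrl2, an atypical receptor for chemerin, was at 0.434 and 0.351 CPM in MKOC and 1.97 and 8.03 CPM in TJ, with a difference of 1.92 (1.26 to 2.58). The 2 genes are neighbours on chromosome 9 of GRCm38, with Ltf at 111019271 to 111042767 and Ccrl2 at 111054486 to 111057519, a gap of 11719 bases. Lbp, the lipopolysaccharide-binding protein of the acute phase response, was at 7.74 and 7.15 CPM in MKOC and 33.1 and 80.1 CPM in TJ. Its TJ libraries were both above its MKOC libraries, and its difference was 1.37 (1.08 to 1.66). Il17rc, a subunit of the interleukin-17 receptor, was at 6.90 and 6.93 CPM in MKOC and 4.05 and 11.4 CPM in TJ. Here TJ cells were below MKOC cells before treatment and above them after it (1.38, interval 0.98 to 1.78). Pigr, which carries IgA across epithelia, met the rule only through the added 0.5 CPM: it was at 0.0712 and 0.263 CPM (2.13 and 6.001 estimated counts) in MKOC and 1.004 and 3.56 CPM in TJ, and its difference of 1.01 was -0.06 with nothing added.

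Psmb9, an interferon-induced subunit of the immunoproteasome, was at 1.65 and 1.08 CPM in MKOC and 1.86 and 4.61 CPM in TJ (difference 1.55, interval 0.92 to 2.18), and on TPM its difference was 0.92, under the threshold. Psmb10, another inducible subunit, was at 16.1 and 16.0 CPM in MKOC and 17.8 and 36.1 CPM in TJ (1.01, interval 0.76 to 1.25). Cd74, the invariant chain of MHC class II, was lower after rapamycin in both lines, at 26.2 and 5.35 CPM in MKOC and 109.8 and 58.5 CPM in TJ, so that its difference of 1.29 (1.02 to 1.56) came from responses of -2.19 and -0.90. The interferon list held neither Psmb10 nor Cd74. Of its 31 genes considered, Psmb9 was a member on one side and Cxcl10 on the other, beside 1.24% of all genes. The list's median responses were 0.66 in MKOC and 0.57 in TJ.

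Several transporter, junction and enzyme genes known from epithelia were members with the higher response in TJ and are described together after their values were seen. The list of nephron lineage and segment genes held 0 members among 17 considered, which is not a contrast beside 1.24% of all genes. Cldn2 encodes claudin-2, the pore-forming tight junction protein of proximal tubules. It was at 5.04 and 2.94 CPM in MKOC and 12.5 and 28.6 CPM in TJ, so the lines went opposite ways, with responses of -0.69 and 1.16 and a difference of 1.85 (1.44 to 2.25). Slc28a3, a concentrative nucleoside transporter, was at 0.253 and 0.641 CPM in MKOC and 1.28 and 9.19 CPM in TJ (1.84, interval 1.18 to 2.51). Bsnd, the barttin subunit of chloride channels of the kidney, was at 14.4 and 14.5 CPM in MKOC and 27.8 and 67.3 CPM in TJ. The MKOC libraries were equal to within 1 CPM, and the difference was 1.25 (1.02 to 1.48). Slc39a4, a zinc importer, was at 0.567 and 0.570 CPM in MKOC and 2.90 and 7.92 CPM in TJ (1.30, interval 0.66 to 1.95). Hsd11b1, which regenerates active glucocorticoid, was at 5.07 and 3.55 CPM in MKOC and 14.4 and 26.1 CPM in TJ (1.29, interval 0.91 to 1.68). In the list of epithelial junctions and keratins, Cldn2 and the membrane protease gene St14 were the 2 members among 28 genes considered, and the list's median difference was 0.04.

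**Figure D2:**
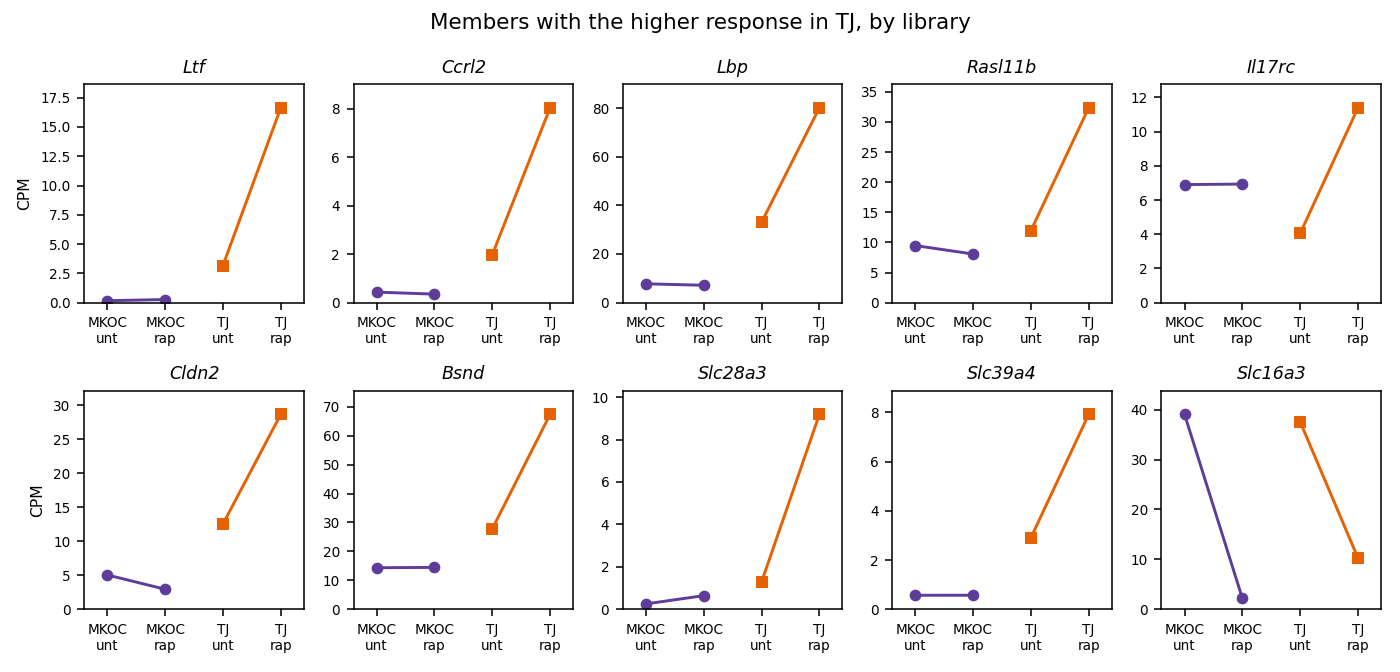
CPM (y axis, from 0) of 10 members with the higher response in TJ in the untreated (unt) and rapamycin (rap) library of each line, 1 library per point, with lines joining the libraries of a cell line. Ltf, Ccrl2, Lbp, Rasl11b, Il17rc, Bsnd and Slc39a4 have a response within 0.5 of 0 in MKOC on the scale with 0.5 CPM added (purple circles) and are higher after rapamycin in TJ (orange squares), whereas Slc16a3 is lower after rapamycin in both lines.

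Slc16a3 encodes MCT4, the lactate exporter of glycolytic cells, and lies on chromosome 11. It was at 39.1 CPM in untreated and 2.19 CPM in treated MKOC cells and at 37.6 and 10.3 CPM in TJ cells. The lines started within 2 CPM of each other, and the treated MKOC library was the lowest, with responses of -3.88 and -1.82 and a difference of 2.05 (1.67 to 2.44). It was the single member among 30 genes considered of glycolysis and the hypoxia response, a list whose median response was -1.31 in MKOC and -1.05 in TJ. In that list 23 of 30 differences were above 0, against 47.4% of all genes, with a median of 0.31.

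Other members on this side are described together, all but Bmf for their high counts, after their values were seen. Gpx3, a secreted glutathione peroxidase made by the kidney, was at 112.8 and 65.1 CPM in MKOC and 173.7 and 232.5 CPM in TJ, which put the lines in opposite directions (-0.79 and 0.42) and gave the narrow interval of 1.10 to 1.31 around 1.21. Sepp1, the selenium carrier selenoprotein P, was at 21.5 and 8.51 CPM in MKOC and 99.8 and 98.2 CPM in TJ (1.27, interval 1.034 to 1.502). Both encode secreted selenoproteins. In the list of oxidative stress and glutathione, Gpx3 was the 1 member among 24 genes considered, 15 of which had a difference above 0, with a median of 0.06. Tns1, a focal adhesion protein, was at 36.7 and 40.9 CPM in MKOC and 53.1 and 137.0 CPM in TJ (1.20, interval 1.05 to 1.36). Kifc3, a minus-end kinesin, was at 63.9 and 116.2 CPM in MKOC and 59.8 and 218.2 CPM in TJ, upward in both lines. Col4a1, a chain of basement membrane collagen, was at 49.3 and 32.5 CPM in MKOC and 10.04 and 15.15 CPM in TJ. It stood higher in MKOC cells throughout while its responses were opposite (-0.59 and 0.57), and it was the 1 member among 21 collagen and matrix genes, 17 of which had a difference above 0. Bmf, which encodes a pro-apoptotic BH3-only protein, had large upward responses in both lines, 1.76 in MKOC and 2.89 in TJ.

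Among the remaining members on this side, Rasl11b, a small GTPase, was at 9.48 and 8.07 CPM in MKOC and 11.9 and 32.3 CPM in TJ (1.62, interval 1.31 to 1.93). Eva1a, which takes part in autophagy, was at 3.57 and 1.36 CPM in MKOC and 6.62 and 8.14 CPM in TJ (1.41). Lgals7, a galectin of stratified epithelia, was at 3.74 and 1.62 CPM in MKOC and 6.14 and 8.22 CPM in TJ (1.39). In these last 2 genes the MKOC libraries carried the larger change. Epn3, an endocytic adaptor, had a difference of 1.31, and Calcb, a calcitonin gene-related peptide, one of 1.29. Of 9 histone genes considered all 9 had differences above 0 (median 0.37), and H2afj (1.21) and Hist1h2bc (1.07) were members, although 32.6% of the 31-base words of Hist1h2bc also occur in another gene.

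The 52 members with the lower response in TJ included a growth-induced transcription factor and a secreted growth factor. Egr1, a zinc finger transcription factor induced by growth factors, was at 19.3 CPM in untreated and 100.0 CPM in treated MKOC cells and at 43.9 and 73.6 CPM in TJ cells. It was upward in both lines (2.34 and 0.74), and the difference was -1.61 (-1.77 to -1.44). Of 27 immediate early genes considered it was the single member, while 20 had a difference below 0 and the list's median was -0.20. In the TGF-beta and BMP list, 14 of 23 genes considered had a difference above 0 and 9 below, with a median of 0.10. Inhba, the activin A subunit, had the higher response in TJ and was at 4.47 and 2.94 CPM in MKOC and 1.19 and 1.86 CPM in TJ (1.01, interval 0.41 to 1.61). Figf, the lymphangiogenic growth factor VEGF-D, was at 7.24 and 24.4 CPM in MKOC and 10.9 and 14.8 CPM in TJ, a difference of -1.26 (-1.56 to -0.96).

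Il1rl1, the receptor of interleukin-33, was at 5.50 and 32.7 CPM in MKOC and 4.15 and 11.7 CPM in TJ (-1.07, interval -1.44 to -0.71), upward in both lines. Its counts were divided between transcripts. For 1 of them they were 41.7 in untreated MKOC and 43.6 in untreated TJ cells and near 0 after rapamycin. The interval does not cover this division. Cxcl10, an interferon-induced chemokine, was at 1.10 and 3.77 CPM in MKOC and 5.80 and 7.57 CPM in TJ, with the higher level in TJ and the larger response in MKOC (-1.06, interval -1.57 to -0.54). Pde4b, which breaks down cyclic AMP, was at 4.77 and 17.4 CPM in MKOC and 2.90 and 4.89 CPM in TJ (-1.10). No gene of the 26 considered from the list of NF-kB targets and chemokines was a member. With 1.24% of all genes being members, this is too short a list for a contrast.

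In the list of matrix proteases and inhibitors, 9 of 20 genes considered had a difference above 0 and 11 below, with a median of -0.03 and a highest value of 0.98. Mmp10, stromelysin-2, was at 7.31 and 12.7 CPM in MKOC and 7.40 and 5.68 CPM in TJ (-1.11). Mmp3, stromelysin-1, was at 5.34 and 7.90 CPM in MKOC and 6.69 and 4.36 CPM in TJ (-1.09). Both were higher after rapamycin in MKOC and lower in TJ. The 2 genes lie 46377 bases apart on chromosome 9 and share part of their sequence, and their summed level gave a difference of -1.15. Klk10, a kallikrein-related protease in none of the lists, was at 2.37 and 10.1 CPM in MKOC and 1.30 and 2.39 CPM in TJ (-1.21).

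Prl2c2 and Prl2c3 were the most abundant nuclear genes among the members with the lower response in TJ. Prl2c2 and Prl2c3 encode proliferins, secreted relatives of prolactin associated with growth of cultured cells and placenta. Prl2c2 was at 487.0 and 603.4 CPM in MKOC and 621.7 and 267.3 CPM in TJ (-1.53), and Prl2c3 at 157.5 and 408.2 CPM in MKOC and 118.7 and 117.2 CPM in TJ (-1.39). They share 94.5% and 86.0% of their 31-base words with another gene, so how reads were divided between them is uncertain. Summed over the 4 Prl2c genes, the level was 646.7 and 1014 CPM in MKOC and 743.7 and 386.9 CPM in TJ, a difference of -1.59. The sum was thus higher after rapamycin in MKOC and lower in TJ. Prl8a9, another gene of the prolactin family, was a member on the other side, at 3.64 and 1.27 CPM in MKOC and 3.31 and 3.33 CPM in TJ (1.23).

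Ostn, which encodes osteocrin (musclin), a peptide that binds the natriuretic peptide clearance receptor, was highest in untreated TJ cells. It had 15 counts in untreated and 1 in treated MKOC cells (0.501 and 0.0439 CPM) and 377 and 23 counts in TJ cells (14.02 and 0.871 CPM). Both lines were lower after rapamycin. Its difference of -2.53 came mostly from the 0.5 CPM added, which is close to the MKOC levels: it was -1.80 with 0.1 CPM added and -0.50 with nothing added, where the treated MKOC level rests on 1 count (exact Poisson 95% interval 0.00111 to 0.244 CPM). Dynap, a membrane protein gene, was at 7.88 and 18.3 CPM in MKOC and 2.83 and 2.73 CPM in TJ (-1.21).

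**Figure D3:**
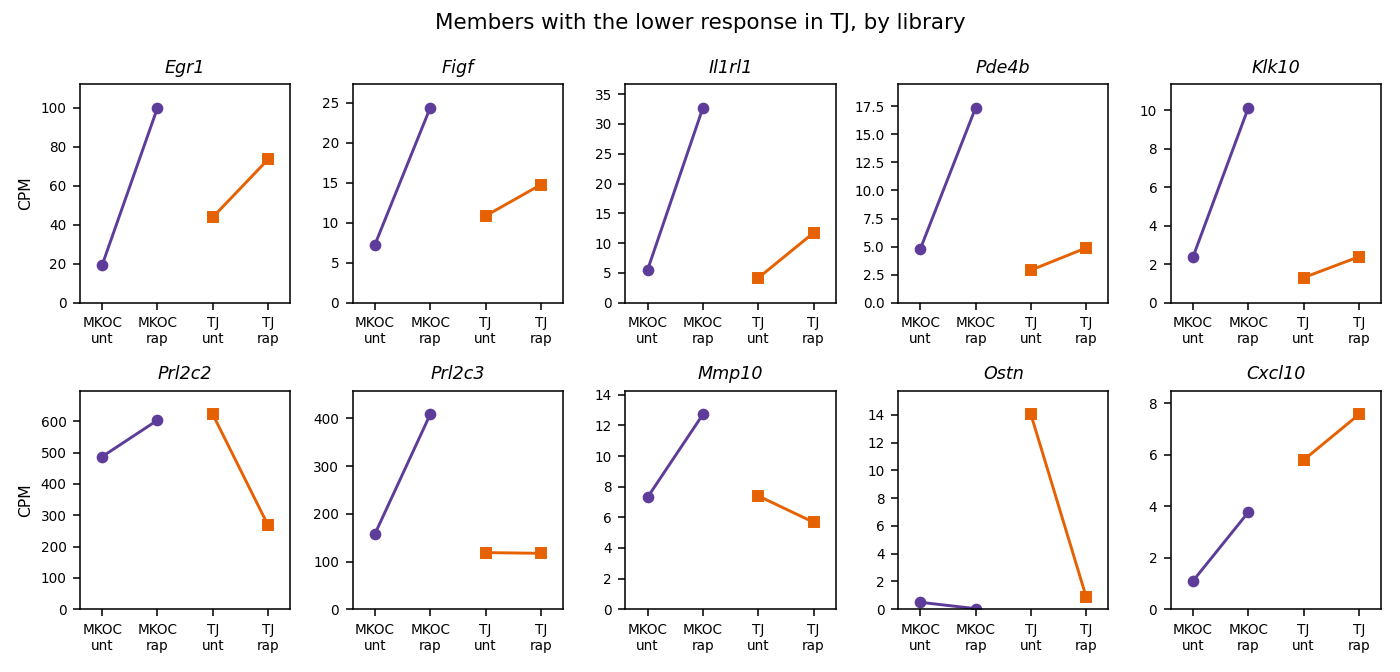
CPM (y axis, from 0) of 10 members with the lower response in TJ in the untreated (unt) and rapamycin (rap) library of each line, 1 library per point. Egr1, Figf, Il1rl1, Pde4b and Klk10 are higher after rapamycin in both lines with the steeper line in MKOC (purple circles), and Prl2c2 and Mmp10 go up in MKOC and down in TJ (orange squares).

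The mitochondrially encoded genes stood apart as a list. They encode subunits of respiratory complexes I, III, IV and V. All 13 had a difference below 0, from -1.21 to -0.36 with a median of -0.84, and 5 were members. mt-Nd1, of complex I, was at 769.7 and 2306 CPM in MKOC and 1806 and 2331 CPM in TJ, a difference of -1.21 (-1.24 to -1.19). mt-Atp8 (-1.17), mt-Atp6 (-1.11), mt-Nd2 (-1.09) and mt-Co2 (-1.05) were the other members, and on TPM mt-Atp8 was at -0.81, which left 4. The untreated MKOC library was the lowest of the 4 for mt-Nd1, and for that gene the treated libraries of the 2 lines were within 2% of each other. Other genes of the list were further apart after treatment, in either direction. In treated MKOC and TJ cells mt-Nd2 was at 1171 and 1473 CPM, and mt-Co3 at 3692 and 3198 CPM. Summed over the 13 genes, the share of counts was 1.89% in untreated and 4.23% in treated MKOC cells and 3.67% and 4.53% in TJ cells, beside 3.24% and 3.17% in the Tsc2+/+ and Tsc2-/- MEFs. The untreated MKOC library had the lowest share of all 6 libraries. A response of 2-fold or more upward was seen for 10 of the 13 genes in MKOC and for none in TJ. Sequence shared with nuclear copies covered 100% of the 31-base words of mt-Co2 and 99.5% of those of mt-Atp6. It covered 13.5% for mt-Nd2, 7.47% for mt-Atp8 and none for mt-Nd1. The copies sharing most carry Gm symbols, which the rule left out, and no sum over them was made. The part of the low share of counts in untreated MKOC cells in the differences was not tested. With mitochondrial counts left out of the library totals the median difference was -0.86.

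**Figure D4:**
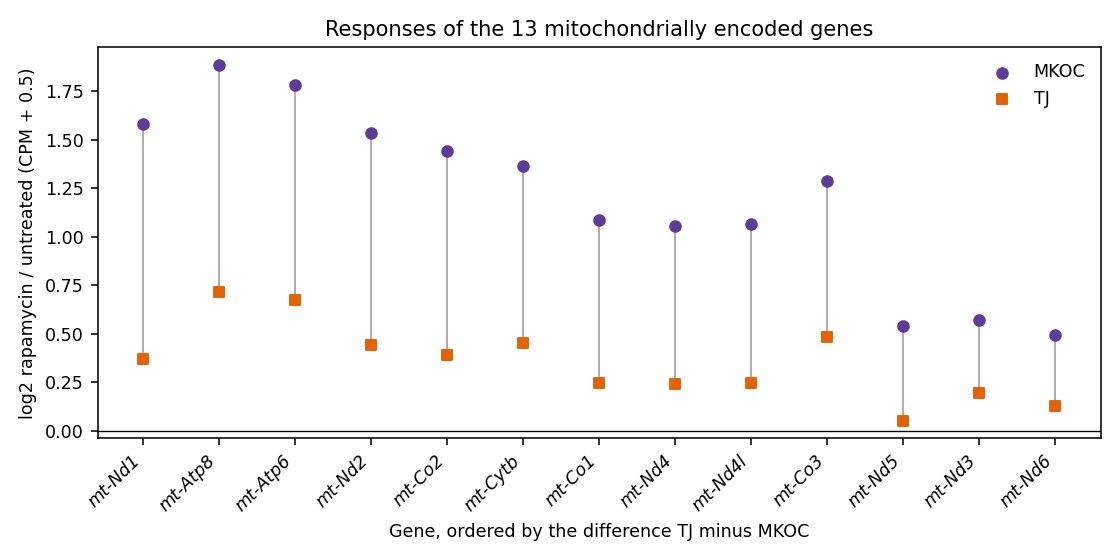
Responses (log2 of rapamycin over untreated CPM with 0.5 added, y axis) of the 13 mitochondrially encoded genes in MKOC (purple circles) and TJ cells (orange squares), 1 library per line and treatment, ordered by the difference. Every gene lies higher in MKOC, with mt-Nd1 and mt-Atp8 the furthest apart.

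Lists for programmes downstream of mTORC1 mostly held no member. Over all genes considered 1.24% were members, so 0 members in a list of this length is not a contrast. For ATF4 targets and serine synthesis, 28 genes were considered, the median response was -1.24 in MKOC and -1.49 in TJ, and the median difference was -0.01. Sterol and fatty acid synthesis (29 genes, median difference -0.21), lysosomal genes (28 genes, 0.00) and DNA replication (30 genes, -0.02) likewise had 0 members. Among 30 mitotic genes none was a member, and 26 had a difference below 0, with a median of -0.22 beside -0.02 over all genes. Collagens and matrix (median 0.34), Wnt signalling (0.28) and nephron lineage genes (0.26) lay on the other side of 0. The markers of macrophages, endothelium, fibroblasts, and muscle and fat held no member among the 4, 2, 1 and 1 genes considered. These are too few genes to be set against the share over all genes.

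**Figure D5:**
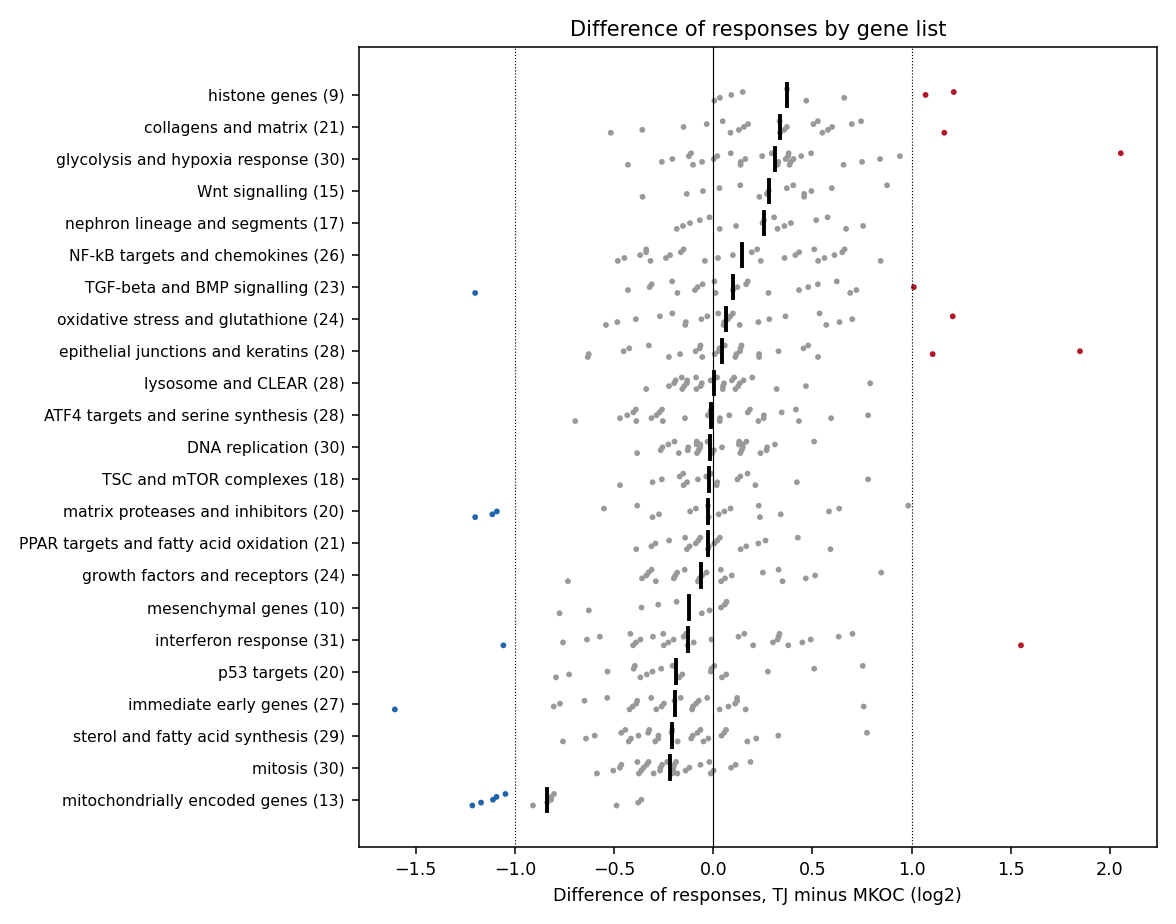
Difference of responses (TJ minus MKOC, log2, x axis) of each gene in the lists with at least 9 genes considered, with the number considered in brackets, black bars at the medians and dotted lines at a difference of 1. The mitochondrially encoded genes lie wholly below 0 and the histone genes wholly above it, while most lists are centred within 0.4 of 0 and hold 0 to 3 genes beyond the dotted lines.

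Several members depend on how reads were divided between near-identical copies or between transcripts. For 15 members, at least 20% of the 31-base words also occur in another gene. When Zxda, which had the largest positive difference of the genes considered (2.39), was summed with Zxdb the difference was 0.29. It was 0.05 for Gbp10 with Gbp6, 0.25 for Psme2b with Psme2, 0.16 for Pgk1-rs7 with Pgk1, and -0.19 for Yy2 with Mbtps2. For 9930111J21Rik1 and 9930111J21Rik2, 2 neighbours on chromosome 11, the sum kept a difference of -1.44. Mlec, which encodes malectin, a lectin of the endoplasmic reticulum, had the lowest difference of the 11026 genes considered on CPM (-2.64) and one of -1.22 on TPM, at 5.94 and 17.3 CPM in MKOC and 9.98 and 4.16 CPM in TJ. Most of it lay in 1 transcript with 0, 201 and 137 counts in untreated MKOC, treated MKOC and untreated TJ cells and 25.4 in treated TJ cells, while the second transcript had between 84.6 and 193.4 counts. For 123 of 137 members the transcript with the most counts alone differed by at least 1 in the same direction, and for 56 only 1 transcript had counts.

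Position and expression elsewhere were not part of the rule. By GENCODE M21 (GRCm38), 135 of the 137 members are protein coding, and 10 pairs of members lie within 200 kb of each other, a number that was not set against that of all genes and that includes copies such as Prl2c2 and Prl2c3. Besides the pairs above, Arpc4 and Il17rc (1.25 and 1.38) and Olfr523 and Cd163l1 (1.33 and 1.38) had like signs, while Lbp and Snhg11 (1.37 and -1.06) had opposite ones. In the MEF libraries 34.3% of the members were below 1 CPM in both, against 4.83% of all genes considered, and the members are also genes of lower count in the kidney libraries. The level in Tsc2-/- MEFs was at least 2-fold above that in Tsc2+/+ MEFs for 36.5% of the genes with the higher response in TJ and for 15.4% of those with the lower one, beside 14.4% of all genes. It was at least 2-fold below for 12.9% and 23.1% of these genes, beside 6.31% of all genes.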

How the data were processed

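Per the study's methods, the authors trimmed the reads with Trimmomatic and quantified transcripts with Kallisto. They deposited estimated counts and TPM for 88198 mouse transcripts, and a fold ratio between the MEF libraries, of which only the paired gene symbols were used here. The version of Kallisto and the mouse transcript build are not given in the sources used here. Estimated counts were summed over 30281 symbols without rounding, and counts with no symbol (0.380% to 0.397% of a kidney library) were left out of the totals. Symbols of the Gm, -ps and Rpl/Rps kinds were left out (458 genes, 46 of them past the threshold).

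The counting interval of a difference used the delta method at 95%, with a library at 0 given 1 count. Kallisto shares reads between similar transcripts, which this interval does not cover. Sharing was measured as the percentage of 31-base words of the main transcript found in another gene (GENCODE M21). Genes named were the 15 largest differences in each direction with at least 200 counts, members of 27 gene lists, 8 members with opposite responses, the 10 most abundant members, and those next to the thresholds. Alpl, Bsnd, Bmf, Gda, Il1rl1, Pigr, Prl8a9, Psmb10, Sepp1, Snhg11, Tns1 and the genes of copy and neighbour pairs were added after their values were seen, with Olfr523 and Cd163l1 among them. The members and lists were chosen with earlier results of these data known. The steps were tested on simulated Poisson counts, with differences larger than the threshold planted in genes averaging at least 200 counts. This does not check members of lower count or near the threshold. Scaling alternatives used edgeR 4.0.16 (TMM) and DESeq2 1.42.0 (size factors) in R 4.3.3, with no test by either, and all other steps were run in Python 3.11.15 with pandas 2.3.3 and numpy 2.4.6. A result that names an item withheld for evaluation is not reported here.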

Additional observations from a re-analysis of the deposited data

Results flagged for a closer look

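In 9 members the response was at least 0.5 upward in one line and at least 0.5 downward in the other, with 1 library per line and treatment, so the difference between the lines was not tested. Downward in MKOC and upward in TJ were Cldn2 (difference 1.85), Ccdc85b (1.66), Arpc4 (1.25), Urah (1.22), Col4a1 (1.16) and Fcgr2b (1.16). Upward in MKOC and downward in TJ were Mlec (-2.64), B020031M17Rik (-1.14) and Mmp3 (-1.09). Of these, Ccdc85b, Urah and Fcgr2b had at most 60, 83 and 55.6 counts in a kidney library. Arpc4 summed with Ttll3, with which it shares sequence, gave 1.30, and Fcgr2b summed with Fcgr3 gave 1.116.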

How the results depend on the processing

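The number of members moved with the added CPM, the count minimum, the threshold and the feature. With 1 CPM added there were 91 genes (32 lower in TJ), and with 5 CPM added 24 (11 higher and 13 lower). A minimum of 200 counts left 62 (41 and 21), a threshold of 1.5 left 24 (14 and 10), and one of 2 left 5 (3 and 2). For single transcripts the number was 3183 of 22281 (1650 higher and 1533 lower). The other alternatives gave between 122 and 205 genes: TMM scaling shared 135 genes with the 137 members, DESeq2 size factors 136, and TPM, with 157 genes, 101. Leaving mitochondrial counts out of the totals (133 genes) and leaving out genes that share 31-base words (122) were chosen after seeing the data, as was adding nothing (205 genes, 80 of them lower in TJ, 129 shared). Over the 49 members that the naming rules above picked and 8 alternatives, 0 of 392 differences changed sign and 34 moved beyond the counting error. The genes added after their values were seen were not among the 49. Of these, Pigr changed sign with nothing added (-0.06). On TPM the difference of Mlec was -1.22, and 8 of the 49 fell short of the threshold. They were Psmb9 (0.92), St14 (0.68), Pde4b (-0.90), mt-Atp8 (-0.81), and Ctsh, Filip1l, Kifc3 and Zfp619, which lay next to it. The genes added later, such as Il1rl1, Snhg11 and Pigr, were not part of this count. The median difference of the mitochondrially encoded genes stayed between -0.82 and -0.86. No paired analysis was possible because the labels give no replicate numbers and each condition had 1 library, which also left no library to leave out. Depth limits most members: 50 counts corresponded to 1.67 to 2.19 CPM.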

Other observations

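Among the 458 genes left out by their symbols, 46 had differences of at least 1, 22 of them higher and 24 lower in TJ. The following 3 were picked after their values were seen. Rps12, a protein of the small ribosomal subunit, was at 180.9 and 79.2 CPM in MKOC and 38.1 and 173.8 CPM in TJ (difference 3.36), while Rps12l1 was at 62.7, 88.0, 110.4 and 0.0840 CPM in the same libraries (-8.05). Summed, the pair was at 243.6 and 167.2 CPM in MKOC and 148.5 and 173.9 CPM in TJ, a difference of 0.77 under the threshold, so the single values depend on how reads were divided between them. Gm29216 had a difference of -1.09, at 927.8 and 2860 CPM in MKOC and 1864 and 2697 CPM in TJ.

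Of the genes just outside the rule, Plac8 was at 2.97 and 5.48 CPM in MKOC and 9.52 and 33.9 CPM in TJ, and Anxa8, an annexin, at 72.9 and 194.0 CPM in MKOC and 83.3 and 111.6 CPM in TJ.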
